A study of Homo sapiens with 4 samples.

Results

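The IFIT family of interferon-induced proteins was followed through RNA sequencing of HT29 cells, a line long grown from a human colon adenocarcinoma. The members were the 4 genes IFIT1, IFIT2, IFIT3 and IFIT5, found by gene symbol among the 53617 genes of the deposited tables, where they had 8 of 168036 transcripts. The 4 libraries came from cells given an antimir against miR-23b (the group labelled low miR23b), the control of that antimir, a miR-23b precursor (labelled high miR23b), and the control of that precursor, with 1 library in each group. An antimir pairs with a microRNA and keeps it from its targets, while a precursor supplies more of it. All 4 cultures were at passages 12 to 13 and were grown in 5% serum. They received their oligonucleotide at 50 nM (the labels write 50nm) with a lipid reagent at 90% confluency, so the controls had been transfected too. The medium was changed at 24 h and RNA was taken after 48 h. No group had a replicate, so no difference below carries a replicate error or a test.

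IFIT proteins are cytoplasmic RNA-binding proteins built of tetratricopeptide repeats, and they are among the genes most strongly induced by interferon. Interferon receptors act through JAK kinases on a complex that includes STAT2 and IRF9 and binds the interferon-stimulated response element (ISRE) in gene promoters; RNA sensors can also switch on IFIT genes through the factor IRF3. IFIT1 binds RNA whose 5′ end differs from that of mature cellular mRNA, such as a triphosphate or a cap without methylation of the first nucleotide, and blocks its translation. IFIT2 and IFIT3 assemble with IFIT1, and IFIT5 binds the 5′ ends of RNA on its own.

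The promoter windows of the members are shown because the 4 genes were higher together in the antimir library, as described further down, and because an ISRE can be read directly in them. RefSeq windows, from 250 bases before to 50 bases after a gene's start on the plus strand of GRCh38.p14, were found for 3 of the 4 members, IFIT1, IFIT3 and IFIT5. They lie at chr10:89392373-89392672 for IFIT1, chr10:89327747-89328046 and chr10:89332279-89332578 for the upstream and downstream starts of IFIT3, and chr10:89414318-89414617 for IFIT5. Capitals mark each match to the ISRE core GAAANNGAAA, searched on both strands, so that every match below reads as its reverse complement TTTCNNTTTC.
IFIT1: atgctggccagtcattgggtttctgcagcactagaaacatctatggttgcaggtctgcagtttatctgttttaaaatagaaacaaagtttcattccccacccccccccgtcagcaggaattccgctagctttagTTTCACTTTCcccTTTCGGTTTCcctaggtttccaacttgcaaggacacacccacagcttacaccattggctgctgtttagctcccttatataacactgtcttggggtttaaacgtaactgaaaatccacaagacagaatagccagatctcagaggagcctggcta
IFIT3 upstream start: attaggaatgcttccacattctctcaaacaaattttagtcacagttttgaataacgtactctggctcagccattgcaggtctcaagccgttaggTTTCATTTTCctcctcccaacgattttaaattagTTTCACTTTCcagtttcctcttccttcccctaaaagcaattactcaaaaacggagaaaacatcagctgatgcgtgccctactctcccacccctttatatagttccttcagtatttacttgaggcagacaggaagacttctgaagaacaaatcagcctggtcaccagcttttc
IFIT3 downstream start: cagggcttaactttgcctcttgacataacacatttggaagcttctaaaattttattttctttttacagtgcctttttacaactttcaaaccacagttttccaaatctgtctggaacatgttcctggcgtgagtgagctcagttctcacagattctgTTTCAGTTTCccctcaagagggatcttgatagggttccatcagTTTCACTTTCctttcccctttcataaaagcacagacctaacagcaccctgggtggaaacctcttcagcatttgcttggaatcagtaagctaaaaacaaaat
IFIT5: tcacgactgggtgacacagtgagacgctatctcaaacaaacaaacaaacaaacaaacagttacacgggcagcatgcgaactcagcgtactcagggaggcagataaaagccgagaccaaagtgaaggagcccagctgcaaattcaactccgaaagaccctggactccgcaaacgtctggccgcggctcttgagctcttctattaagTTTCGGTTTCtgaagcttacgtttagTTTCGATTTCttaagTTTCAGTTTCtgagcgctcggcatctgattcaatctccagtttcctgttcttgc

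Every one of these 4 windows held at least 2 ISRE cores. The window of IFIT1 held 2, the first bases of which lay 116 and 103 bases before the start. The upstream window of IFIT3 held 2, beginning 156 and 122 bases before its start, and the downstream window held 2, beginning 94 and 51 bases before its start. IFIT5 held 3, beginning 45, 19 and 4 bases before its start, and the last of them ran over the start itself. Among all 35116 RefSeq windows of 300 bases, 3.57% held at least 1 ISRE core and 0.259% held 2 or more. The element was also frequent among other interferon-induced effectors, where 20 of 28 genes with a window held it in at least 1 of their windows. That is a share of genes, while the 3.57% is a share of single windows. IFIT1B, a relative in the same cluster, had no ISRE core in its window. Its transcript was at or near 0 FPKM in the antimir table and had failed in the precursor table.

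The other elements searched were less shared. The gamma-activated sequence core TTCNNNGAA was in none of the 4 windows, against 7.66% of all windows. For the TATA box, the letters TATAAA on either strand matched in the upstream window of IFIT3 alone, against 11.5% of all windows. That match read as the reverse complement TTTATA, 30 bases before the start. Other spellings of a TATA box were not searched, so a window without a match may still hold one. No motif overlapped another in these windows.

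**Figure D1:**
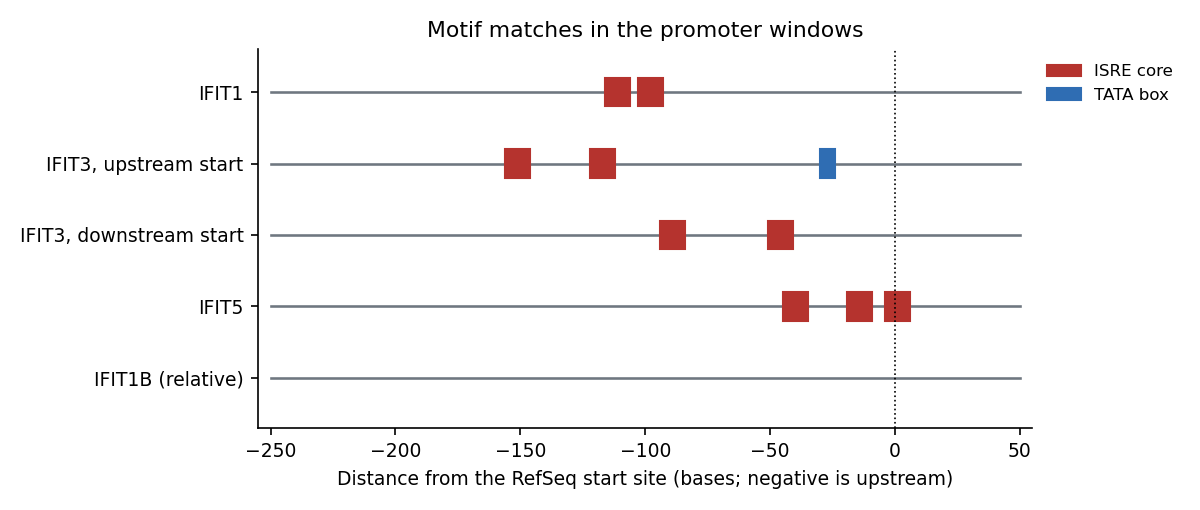
Positions of motif matches in 300-base promoter windows, as distance in bases from the RefSeq start site (dotted line), for IFIT1, both starts of IFIT3, IFIT5 and the relative IFIT1B. Each line is a window, red boxes are ISRE cores and the blue box is a match to TATAAA, which reads as its reverse complement. The 4 windows of members held 2, 2, 2 and 3 ISRE cores and the window of IFIT1B held 0.

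In the authors' tables, which use hg19, all 4 genes were quantified in 1 shared locus, chr10:90973325-91180758, together with LIPA, the lysosomal acid lipase gene, IFIT1B, the pseudogene IFIT6P and RP11-149I23.3. In GENCODE 29, which is built on GRCh38, IFIT1, IFIT2 and IFIT3 lie inside the span of LIPA on the opposite strand, and IFIT5 lies just outside it. Their exons shared 0 bases with exons of LIPA for IFIT1, IFIT3 and IFIT5 and 65 of 4101 bases for IFIT2, and the sources used here do not say whether the libraries kept strand. For shared 50-base stretches, 1 transcript per member was searched: ENST00000371804, ENST00000371826, ENST00000371818 and ENST00000371795. These shared none with each other. Not searched were ENST00000416601, with 60.1% of the FPKM of IFIT5 in the antimir library, and ENST00000543062, with 48.7% of that of IFIT3. For IFIT1, 2.08% of such stretches also occurred in IFIT1B or IFIT6P, and for IFIT3 2.62% occurred in many other genes. For IFIT2 and IFIT5 the share was 0%.

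The libraries carried the colon epithelial identity of the line. Of 10 epithelial markers fixed with the design, 8 passed a mean of 1 FPKM in the antimir table and 9 in the precursor table. FPKM is a read density per transcript length and library size. Their summed level was 5076 FPKM in the antimir library against 5244 in its control, and 10999 in the precursor library against 10508 in its control. The 10 immune markers summed to 7.80 FPKM in the antimir library against 7.75 in its control, and to 9.52 FPKM in the precursor library against 7.13 in its control. Of these, 3 passed a mean of 1 FPKM in each table, CD14, CD68 and ITGAM. CD68 was the highest, at 5.14 FPKM in the antimir library against 4.16 in its control, and at 5.59 in the precursor library against 4.18 in its control. MS4A1 (B cells) was listed at 0 in all 4 libraries and PTPRC (all leukocytes) at 0 in the precursor table. The 7 fibroblast and endothelial markers in the tables summed to 0.969 FPKM in the antimir library against 0.840 in its control, and to 1.06 FPKM in the precursor library against 1.13 in its control. Bulk RNA cannot tell fewer cells of a type from less RNA per cell. Absolute depth is unknown. Low entries were taken as those above 0 in both libraries and under 0.5 FPKM in the treated library, with no upper limit in the control. Their commonest ratio in the antimir table was 1.18 (antimir control over antimir), in 864 of 37417 entries, such as equal read counts would give. The next was 0.591, as 1 read against 2 would give. In the precursor table the commonest ratio was 1.26 (control over precursor) in 253 of 49369 entries.

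The comparison of the antimir library with its control concerns the group labelled low miR23b, and all 4 IFIT genes were higher in the antimir library. The activity of miR-23b itself was not tested here. IFIT1 was at 87.7 FPKM in the antimir library, against 21.7 in the antimir control, a ratio of 4.04. IFIT3, which stabilises the binding of IFIT1 to capped RNA, was at 41.6 FPKM in the antimir library against 15.7 in its control, a ratio of 2.65. IFIT5 was at 22.9 FPKM in the antimir library against 9.22 in its control, a ratio of 2.48. IFIT2, a partner of the other members also linked to cell death, was at 11.7 FPKM in the antimir library against 6.12 in its control, a ratio of 1.91. The family summed to 164 FPKM in the antimir library and to 52.8 FPKM in the antimir control.

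On the log2(FPKM + 1) scale, centred on the median of all genes with a mean of at least 1 FPKM, the differences were 2.0 for IFIT1, 1.39 for IFIT3, 1.26 for IFIT5 and 0.87 for IFIT2. All 4 lay past 1.5-fold, in a table where 5.07% of 14190 genes and 1.75% of 11060 protein-coding genes were at least 1.5-fold higher. The median of the members was 1.33, where the median of all genes is 0 by construction. Counted from the highest difference among protein-coding genes, IFIT1 stood at place 17, IFIT3 at 32, IFIT5 at 37 and IFIT2 at 81. Among all genes the places were 303, 371, 390 and 496 in the same order of members. Of the 302 genes above IFIT1, 272 were listed at 0 in the antimir control, and 181 of these were of small RNA classes in GENCODE 29. Of the 495 above IFIT2, 299 were listed at 0 there. All 4 members passed the expression filter on the control library alone, so none was included only because it was high after the antimir.

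**Figure D2:**
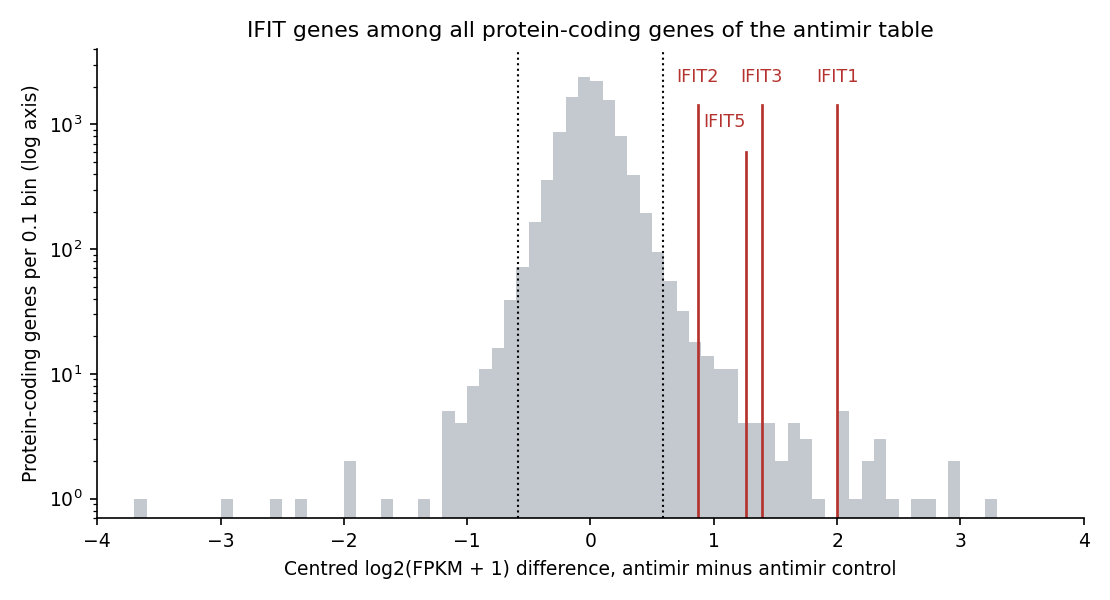
Number of protein-coding genes per 0.1 bin (log axis) by centred log2(FPKM + 1) difference, antimir minus antimir control, in 1 library each. Red lines are IFIT2 (0.87), IFIT5 (1.26), IFIT3 (1.39) and IFIT1 (2.0), all to the right of the dotted line that marks 1.5-fold higher.

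The size of the difference followed the level of the gene within the family. In FPKM, which is per length, IFIT1 was the most abundant member, then IFIT3, IFIT5 and IFIT2, in both antimir-table libraries. The differences had the same order. With 1 library per group there is no spread by which to say whether neighbours in this order differ. As a consequence of the unequal ratios, IFIT1 made up 53.5% of the family's FPKM in the antimir library, against 41.2% in the antimir control. IFIT3 made up 25.4% of it in the antimir library against 29.8% in the antimir control, IFIT5 14.0% against 17.5%, and IFIT2 7.12% against 11.6%.

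Single transcripts moved as the genes did. Of the 8 transcripts, 7 had status OK in the antimir table, meaning that they were tested there, 1 had status NOTEST and none had failed. IFIT1 was carried almost wholly by ENST00000371804, at 86.9 FPKM in the antimir library against 21.5 in its control. Its longer transcript ENST00000546318 was at 0.747 FPKM in the antimir library against 0.208 in its control, below the filter. IFIT2 had the transcript ENST00000371826, at 11.7 against 6.12 FPKM. The remaining members were each divided between a pair of transcripts.

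For IFIT3, ENST00000371818 was at 21.4 FPKM in the antimir library against 8.04 in its control, and ENST00000543062 was at 20.2 against 7.66 FPKM. These transcripts kept nearly equal parts of the gene, with ENST00000371818 at 51.3% of its FPKM in the antimir library against 51.2% in the antimir control. ENST00000371811, which GENCODE 29 starts near the downstream promoter window, was listed at 0 in all 4 libraries. For IFIT5, ENST00000371795 was at 9.13 FPKM in the antimir library against 3.33 in its control, and ENST00000416601 was at 13.8 against 5.89 FPKM. ENST00000371795 held 39.9% of the gene in the antimir library against 36.1% in the antimir control. All 6 transcripts with a mean of at least 1 FPKM were at least 1.5-fold higher, with centred differences of 0.86 to 2.0, in a table where 10.4% of 40627 transcripts were.

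The authors' own test called 1 member transcript. In the authors' deposited table, ENST00000371804 of IFIT1 had a p-value of 2.72e-10 and a q-value of 6.14e-07 and was called significant. There, the 151 transcripts called higher in the antimir library were 0.243% of the 62029 tested. The next lowest q-values of the authors' deposited table were 0.427 for ENST00000371818 of IFIT3 (p-value 0.00484) and 0.852 for ENST00000371795 of IFIT5 (p-value 0.0168). ENST00000371826 of IFIT2 had a p-value of 0.0820 in the authors' deposited table. These p-values compare 2 libraries, not 2 conditions.

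The tables also hold entries that carry the gene identifier in place of a transcript, 1 for each member. They look like whole-locus, unspliced forms, though no source says how they were made. For the members they were low, between 0.0239 and 0.332 FPKM in the antimir table, and each was higher in the antimir library. That of IFIT1 was at 0.332 FPKM in the antimir library against 0.0515 in its control. They were left out of the sums above.

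**Figure D3:**
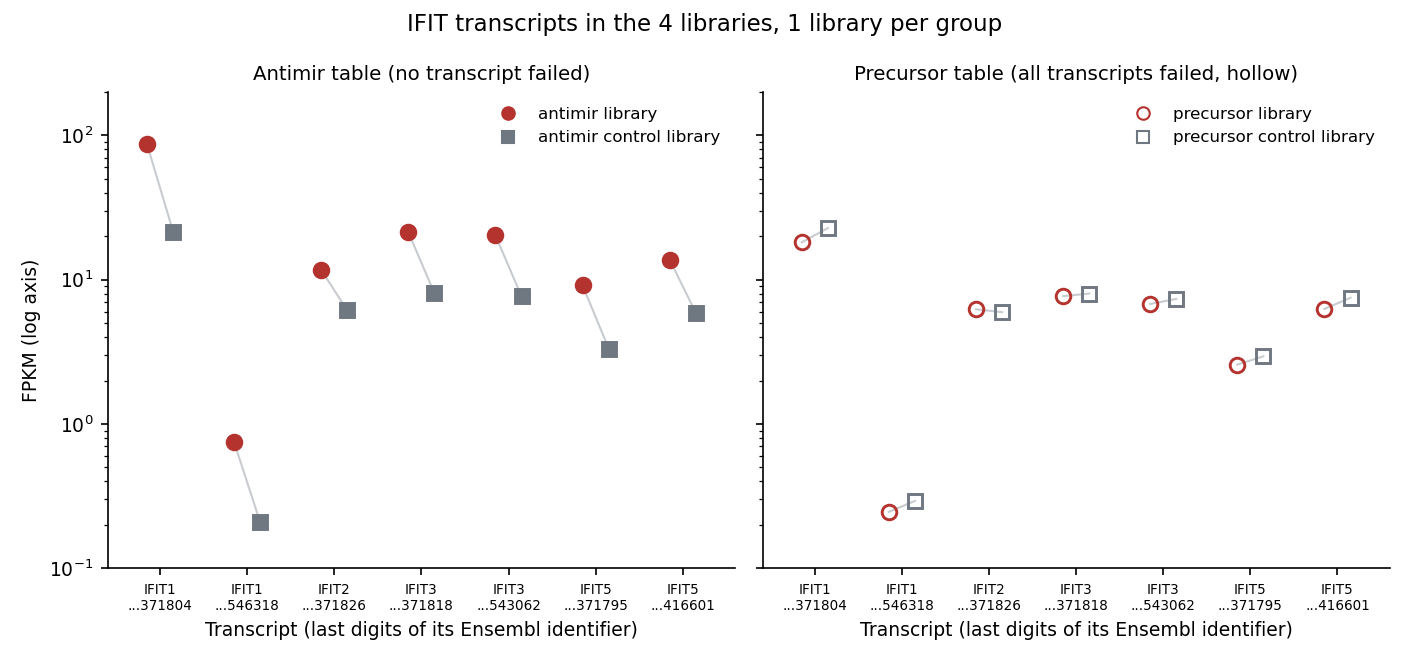
FPKM on a log axis of the 7 IFIT transcripts that were above 0, in the antimir table (left, red circles antimir library, grey squares antimir control) and the precursor table (right, red circles precursor library, grey squares precursor control). Each point is 1 library; all 7 are higher in the antimir library, and hollow points on the right are values of failed transcripts, on which no comparison rests.

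The comparison of the precursor library with its control concerns the group labelled high miR23b, and it gave no value for any member. All 8 transcripts and all 4 gene-identifier entries of the members had status FAIL in the precursor table, which Cuffdiff gives where its estimate for a locus could not be completed. The failure covered the whole shared locus, with 34 of 35 entries failed and the other, a LIPA transcript, at LOWDATA. In the antimir table none of the 35 had failed. The failed entries still list FPKM values, with a p-value of 1 in the authors' deposited table. For IFIT1 the listed values sum to 18.4 FPKM in the precursor library, against 23.1 FPKM in the precursor control. For IFIT3 they sum to 14.5 FPKM in the precursor library against 15.4 in its control, for IFIT5 to 8.84 against 10.4, and for IFIT2 to 6.24 against 5.96. As values of failed entries, these sums give no comparison of the 2 libraries. The tables were normalised separately, so levels are not comparable across them.

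The genes through which IFIT transcription is known to be switched on were partly higher in the antimir library. Of 12 measured interferon receptor and JAK-STAT relay genes, 2 were at least 1.5-fold higher and 0 lower. In this list 7 lay below 0, and the median was -0.019. IRF9 was at 103 FPKM in the antimir library against 60.8 in its control, a centred difference of 0.79 and past 1.5-fold. STAT2 was at 23.2 FPKM in the antimir library against 17.3 in its control, a centred difference of 0.44 and short of it. Of 14 measured RNA sensors and relay genes, 6 were at least 1.5-fold higher and 0 lower, with a median of 0.29. Over all 14190 genes, 5.07% were at least 1.5-fold higher. Interferon genes themselves were barely measurable. Of 9 in the table, IFNE alone passed 1 FPKM, at 4.88 in the antimir library against 4.68 in its control, a value that rests on a gene-identifier entry of status LOWDATA. None of their entries had failed, and the 9 together summed to 5.48 FPKM in the antimir library against 5.16 in its control.

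Other interferon-induced effectors were higher beside the members, with 32 of 33 measured at least 1.5-fold higher and a median of 1.48. The share over all 14190 genes was 5.07%. In the effector list, 8 entries had failed in the antimir table and were left out. Within this list, IFIT1 was exceeded by 10 effectors, IFIT3 by 20, IFIT5 by 21 and IFIT2 by 29 of 33. In the precursor table, 31 effectors were measured, of which 2 were at least 1.5-fold lower, 0 higher and 23 below 0, with a median of -0.21. There, 3.32% of 16982 genes were at least 1.5-fold lower. The differences nearest to the median of the members over the 2 antimir libraries belonged to AP000358.3, ANO7L1, USP18, 7SK and RP3-323P13.2, within 0.015 of it on the log2 scale. Of these, USP18, which removes ISG15 from proteins, is on the effector list.

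Genes that act on the same RNA ends, or whose products bind IFIT proteins, were within 1.5-fold. None of 8 measured RNA cap and 5′ end enzymes was past 1.5-fold in the antimir comparison (median -0.09). None of 13 subunits of eIF3, the initiation factor reported to bind IFIT proteins, was past it either (median -0.18), and 11 of them lay below 0. Among all 14190 genes, 720 were at least 1.5-fold higher and 411 at least 1.5-fold lower, so lists this short would hold few such genes. Of 5 measured neighbours of the cluster on chromosome 10, KIF20B, a mitotic kinesin, was past 1.5-fold at 19.0 FPKM in the antimir library against 10.4 in its control. LIPA, whose span covers most of the cluster, was at 21.8 FPKM in the antimir library against 18.8 in its control. Over its transcripts with status OK it was at 18.03 against 18.8 FPKM. The transcript of IFIT1B stood at 0.0273 FPKM after the antimir and was listed at 0 in the antimir control.

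**Figure D4:**
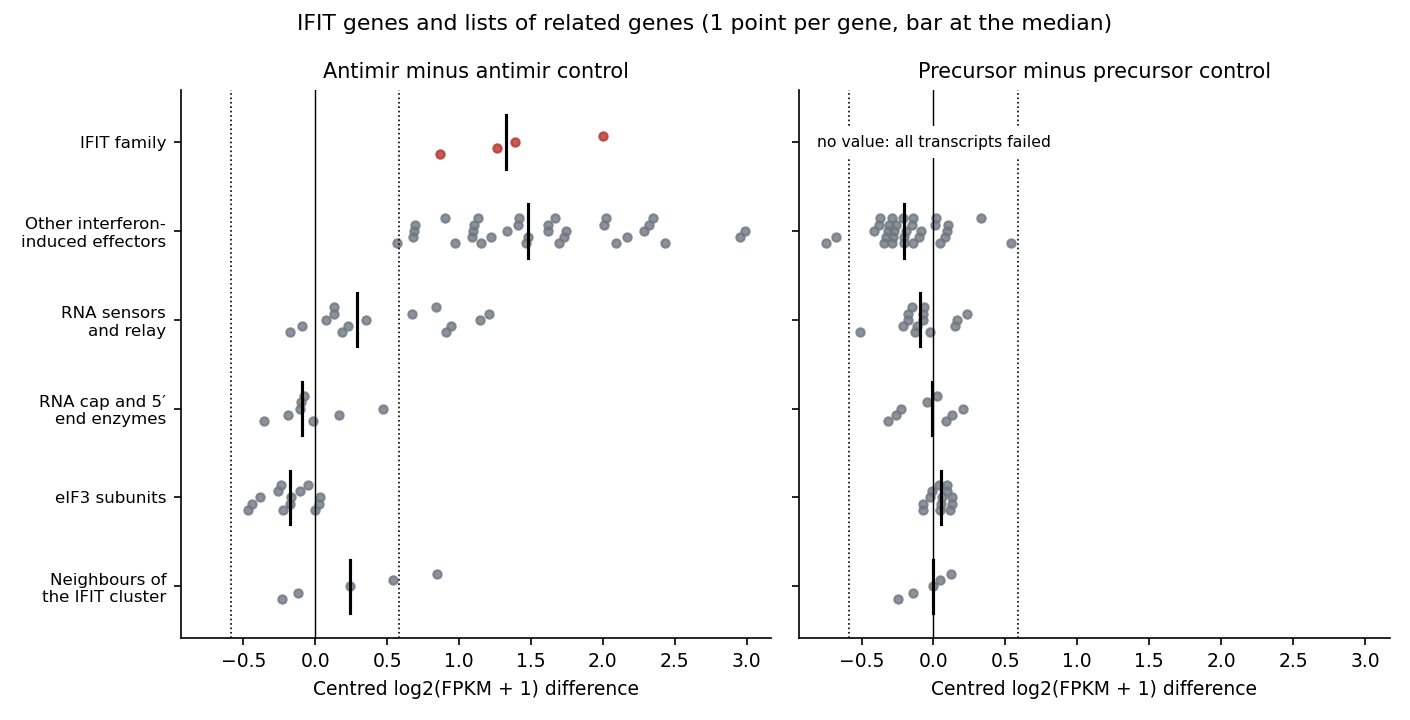
Centred log2(FPKM + 1) differences of the IFIT genes (red) and of related lists (grey), antimir minus antimir control (left) and precursor minus precursor control (right), 1 point per measured gene with a bar at the median and dotted lines at 1.5-fold. On the left the 4 IFIT genes lie between 0.87 and 2.0 and the effectors around a median of 1.48. The cap enzymes and eIF3 subunits there have medians of -0.09 and -0.18. On the right the members have no value. The neighbour LIPA, at 0.12 on the right, rests on the 1 entry of its failed locus with status LOWDATA.

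Matches to the seed of miR-23b-3p were looked for because the antimir and the precursor of the study concern miR-23b. Below are its mature sequence from RefSeq, with the seed (bases 2 to 8) in capitals, and 30 bases around each complementary 7-mer (in capitals) found in the longest 3′ UTR of a member in GENCODE 29, in DNA letters and matched by transcript identifier without its version.
miR-23b-3p: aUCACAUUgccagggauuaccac
IFIT1 ENST00000546318: aattttaattcAATGTGAaagggttccaag
IFIT2 ENST00000371826: gtattctacacAATGTGAattcaagtgcct
IFIT5 ENST00000371795: gctttttttttAATGTGAaattttcagaat

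IFIT1, IFIT2 and IFIT5 each had 1 match and IFIT3 had 0, where 18.4% of 19146 genes with a 3′ UTR had a match. The 3′ UTRs searched were 2774 bases long for IFIT1, 1901 for IFIT2, 2353 for IFIT5 and 843 for IFIT3. A longer one has more places for a match, and the share over all genes was not matched for length. The match of IFIT1 lies only in the long 3′ UTR (2774 bases) of ENST00000546318, the transcript at 0.747 FPKM in the antimir library against 0.208 in its control. The 3′ UTR of ENST00000371804 (276 bases), which carried 99.1% of the gene's FPKM in the antimir library against 99.0% in the antimir control, held none. IFIT3, without a match, had a centred difference of 1.39. IFIT2 and IFIT5, each with a match in a transcript they express, had 0.87 and 1.26. ENST00000416601, with 60.1% of the FPKM of IFIT5 in the antimir library, and ENST00000543062, with 48.7% of that of IFIT3, had no counterpart in GENCODE 29 by identifier, so their 3′ UTRs were not searched. A match of letters is a description and not evidence of a site in use.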

How the data were processed

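RNA of 4 HT29 cultures was sequenced, 1 library per group. Per the submitters' processing notes, the tools were bcl2fastq 1.8.3, TopHat2 2.0.11, Cufflinks 2.2.0 and Cuffdiff on hg19; the sources used here do not give their order, settings or annotation. The 2 tables deposited by the authors each hold FPKM per transcript of 1 treated library and 1 control, and per the file headers the authors' p-value and q-value for each. Each control is the table column whose name ends in N, matched to the control as the only other library of its table. Absolute depth is unknown.

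FPKM was summed over the transcripts of a gene that were not FAIL; gene-identifier entries served only genes without transcripts. Differences are log2(FPKM + 1), treated minus control, for genes with a mean of at least 1 FPKM, centred on their median (-0.038 in the antimir and 0.022 in the precursor table; -0.030 for transcripts of the antimir table). Changes of low genes come out too small on this scale. Genes past 1.5-fold were counted without a test. The calculation, in Python 3.11.15 with pandas 2.3.3, was tested on simulated data. The members and lists were chosen with earlier results of these data known. Named genes were the 4 members and at most 3 genes per list, taken by size of difference, of which some are left out and 1 is not reported here; IFIT1B, the IFIT pseudogenes and markers listed at 0 were named after their values were seen. Of the genes most like the members, the 5 nearest in difference are given. Promoters and the microRNA came from RefSeq (GRCh38.p14), 3′ UTRs from GENCODE 29, and no coordinates were carried between builds. Alternatives were another pseudocount, another or no filter, the most abundant transcript only, failed transcripts kept, OK transcripts only, gene-identifier entries added, and no centring.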

Additional observations from a re-analysis of the deposited data

How the results depend on the processing

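All 4 IFIT genes stayed at least 1.5-fold higher in the antimir library under all 9 alternatives, and so did the 6 transcripts under the 7 that apply to transcripts. The median difference of the members ranged from 1.10 to 1.39, IFIT1 from 1.82 to 2.05, IFIT3 from 1.20 to 1.44, IFIT5 from 1.00 to 1.34 and IFIT2 from 0.61 to 0.96; the lowest values came with a pseudocount of 5. Effectors at least 1.5-fold higher in the antimir library numbered 29 to 33, but the number measured changed with the setting. They were 29 of 30 at a mean FPKM of at least 5, and 30 of 33 with a pseudocount of 5. With OK transcripts only they were 30 of 31, and without a filter 33 of 35. Effectors at least 1.5-fold lower in the precursor library numbered 2, but 0 with a pseudocount of 5, 1 at a mean FPKM of at least 5, and 3 with the most abundant transcript only and with OK transcripts only. The precursor comparison gave no median or difference of single members under any setting but the one that keeps failed transcripts. There the values were -0.33 for IFIT1, 0.034 for IFIT2, -0.10 for IFIT3 and -0.24 for IFIT5 (median -0.17). All come from failed transcripts, so no comparison rests on them.

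No paired analysis was possible because each group held 1 library, and leaving out a library was not possible for the same reason. FPKM without counts gives no counting interval, so how far depth limits these values is unknown.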

Other observations

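The failure that removed the IFIT genes from the precursor table struck whole loci. There, 1321 of 212874 entries (0.621%) had failed, in 69 of 32774 loci, and in all 69 every entry had failed except those with LOWDATA. In the antimir comparison, 1528 entries (0.718%) had failed in 79 loci, again with every entry of each but those with LOWDATA. Among the failed values, which carry no comparison, ENST00000371795 is listed at 29.1% of the FPKM of IFIT5 in the precursor library and at 28.2% in the precursor control. The pseudogene relative IFIT1P1 on chromosome 13 stayed under 0.1 FPKM in all 4 libraries, and IFIT6P was listed at 0 in all 4.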
